A study of Mus musculus with 11 samples.

Results

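The 10 Toll-like receptor genes Tlr1 to Tlr9 and Tlr13 were followed in whole skin of newborn mice that had lost regulatory T cells (Tregs) for different spans of the first 2 weeks of life. The genes were taken by name from a table of read counts for 49315 genes, and all 10 were among the 18375 genes that passed the filter on low counts and were tested. All 11 mice were of the Foxp3-DTR strain. In it the receptor of diphtheria toxin (DT) is made from the Foxp3 locus, so that DT kills Foxp3-expressing Tregs wherever they are in the body. The control group held 2 mice given PBS, and the ΔETreg (EarlyDT), ΔLTreg (LateDT) and ΔTreg (FullDT) groups held 3 mice each. ΔETreg mice received DT at 30 ng per g on postnatal day 6 (P6) and P8, ΔLTreg mice received it on P10 and P12, and ΔTreg mice had 4 doses between P6 and P12. ΔETreg skin was harvested on P9, and ΔLTreg and ΔTreg skin on P13. For the control mice no harvest day is stated in the labels, so age and DT cannot be told apart in comparisons with control, all of which share these 2 libraries. The paper describes its comparisons as age-matched, with control skin on P9 and on P13. It does not state to which day each of these 2 libraries belongs. No group without the DT receptor and given DT was analysed here.

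Toll-like receptors are membrane proteins of innate immune cells and of some epithelial cells that bind conserved molecules of microbes. TLR1, TLR2, TLR4, TLR5 and TLR6 sit mainly at the cell surface, where TLR2 pairs with TLR1 or TLR6 to bind bacterial lipopeptides, TLR4 binds lipopolysaccharide and TLR5 binds flagellin. TLR3, TLR7, TLR8, TLR9 and TLR13 sit in endosomes and read nucleic acids. Nearly all of them signal through the adaptor MyD88, TLR3 signals through TRIF and TLR4 through both, which leads to NF-κB and to interferon regulatory factors. In skin they are carried by macrophages, dendritic cells, mast cells and keratinocytes, which meet the bacteria that settle on the body after birth.

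In ΔTreg skin, 7 of the 10 receptors rose against control, Tlr1, Tlr2, Tlr3, Tlr4, Tlr6, Tlr8 and Tlr13, and 1 fell, the flagellin receptor gene Tlr5. The increases ran from 1.64-fold for Tlr3 to 4.44-fold for Tlr1, whereas Tlr5 was 1.40-fold lower. Tlr7 and Tlr9 did not pass the test. Over all genes tested, 12.1% were called higher and 9.39% lower in this comparison. In 8 receptors, the 7 and Tlr9, all ΔTreg mice lay above both control mice, which was so for 26.8% of genes tested. The median log2 fold change was 1.35 over the 10 receptors and -0.01 over all genes tested. In ΔETreg and ΔLTreg skin none of the 10 passed the test against control. A call means an adjusted p (Benjamini-Hochberg, over all genes tested) under 0.05 by the quasi-likelihood test of edgeR, and levels are in CPM, the read count of a gene relative to its library's TMM-scaled size.

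**Figure D1:**
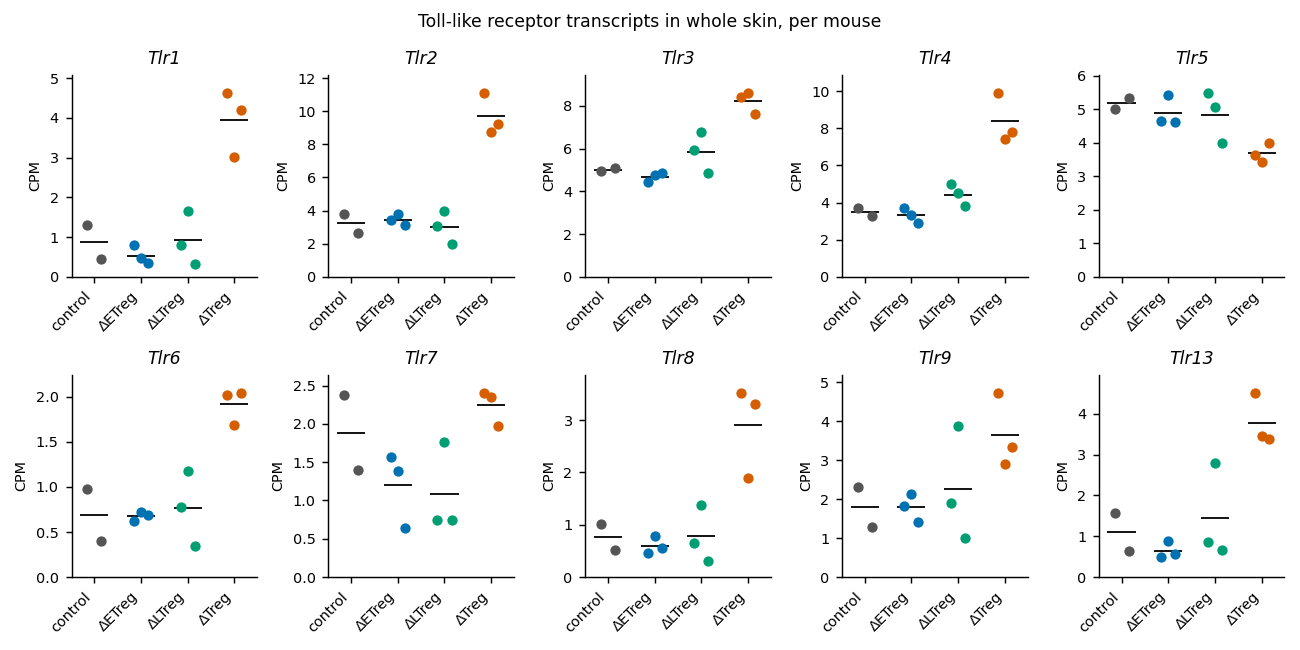
Level in CPM (y axis, from 0) of each receptor transcript in each mouse (points) by group (x axis), with the group mean as a line. In the panel of Tlr2 the 3 ΔTreg mice lie between 8.76 and 11.1 CPM and all other mice at or under 3.9995 CPM, whereas in the panel of Tlr5 the ΔTreg mice lie at or under 3.99 CPM, below both control mice.

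Whole libraries held between 23377571 and 34159435 counts. The keratinocyte genes Krt5, Krt14 and Krt10 summed to between 7361 and 9886 CPM in each library, so the labelled tissue had its defining genes. Foxp3 had 9 to 23 counts in every library, too few to follow the depletion in whole skin, with a log2 fold change of -0.30 (adjusted p = 0.546) between ΔTreg and control. Both sexes were present in each group by their X- and Y-linked transcripts, with 1 of 2 control, 2 of 3 ΔETreg, 1 of 3 ΔLTreg and 1 of 3 ΔTreg mice male. Among the 8 libraries outside ΔTreg, ΔLTreg mouse 2 was highest for 7 of the 10 receptors and ΔLTreg mouse 3 was lowest for 6. A list of 11 macrophage and monocyte genes put the same mice at its ends, at 300.04 summed CPM in ΔLTreg mouse 2, 278.7 in control mouse 1 and 125.0 in ΔLTreg mouse 3. A fit with control mouse 1 and ΔLTreg mouse 2 both left out is therefore also given, a choice made after the values were seen. These are the 2 highest of the 8 mice in that sum, and ΔLTreg mouse 3 is kept. Leaving them out thus tends to widen the gap to ΔTreg skin and is no check on it.

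The surface receptors of bacterial lipids rose in ΔTreg skin. Tlr2 (chromosome 3 of GRCm38, 83836272 to 83841767, minus strand), the partner shared by TLR1 and TLR6, was at 3.78 and 2.67 CPM in control, 3.41, 3.78 and 3.13 in ΔETreg, 3.07, 3.9995 and 1.97 in ΔLTreg skin, and 11.1, 8.76 and 9.24 CPM in ΔTreg mice. The lowest ΔTreg mouse was thus above all 8 other mice, which overlapped among their groups. Its log2 fold change against control was 1.58 (SE 0.253, adjusted p = 0.00127) in ΔTreg, 0.09 (SE 0.259) in ΔETreg and -0.12 (SE 0.260) in ΔLTreg skin. Tlr1 (chromosome 5, 64924679 to 64933563, minus strand), whose product binds triacylated lipopeptides with TLR2, was at 1.30 and 0.44 CPM in control, 0.80, 0.46 and 0.34 in ΔETreg, 0.80, 1.65 and 0.31 in ΔLTreg skin, and 4.63, 3.03 and 4.20 CPM in ΔTreg mice. Both control mice lay within the range of the 6 mice given 2 doses of DT, and the 3 ΔTreg mice lay above all of them. Tlr1 rose by a log2 fold change of 2.15 (SE 0.543, adjusted p = 0.0167) against control. Tlr6 (chromosome 5, 64952031 to 64960097, minus strand), whose product binds diacylated lipopeptides with TLR2, was at 0.98 and 0.40 CPM in control, 0.63, 0.72 and 0.69 in ΔETreg, 0.77, 1.18 and 0.34 in ΔLTreg skin, and 2.02, 1.69 and 2.04 CPM in ΔTreg mice. Its ΔTreg mice were again above all others, with a log2 fold change of 1.44 (SE 0.417, adjusted p = 0.0313). Tlr1 and Tlr6 lie 18467 bases apart and their transcripts share an identical run of 229 bases, longer than the 150-base reads. A read pair that falls wholly within that run has no unique position, so their levels are uncertain by such pairs.

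Tlr4 (chromosome 4, 66827584 to 66930284, plus strand), the lipopolysaccharide receptor gene, was at 3.71 and 3.27 CPM in control, 3.73, 3.35 and 2.91 in ΔETreg, 4.98, 4.51 and 3.79 in ΔLTreg skin, and 9.91, 7.42 and 7.79 CPM in ΔTreg mice. It rose in ΔTreg skin by a log2 fold change of 1.25 (SE 0.176, adjusted p = 0.000543). All 3 ΔLTreg mice also lay above both control mice, as they did for 15% of the genes tested, but the log2 fold change of 0.34 (SE 0.178, adjusted p = 0.316) did not pass the test. Tlr5 (chromosome 1, 182954788 to 182976044, plus strand) went the other way. It was at 5.01 and 5.34 CPM in control, 4.63, 5.42 and 4.63 in ΔETreg, 5.48, 5.06 and 3.98 in ΔLTreg skin, and 3.64, 3.41 and 3.99 CPM in ΔTreg mice. The highest ΔTreg mouse lay below both control mice, as in 25.8% of genes tested, and below all ΔETreg mice, as in 21.7%, but overlapped the lowest ΔLTreg mouse. The log2 fold change of Tlr5 in ΔTreg skin was -0.49 (SE 0.154, adjusted p = 0.0442) against control, -0.41 (SE 0.140, adjusted p = 0.0550) against ΔETreg and -0.39 (SE 0.139, adjusted p = 0.0785) against ΔLTreg skin. Against control it kept its call in 3 of 7 other settings and in 3 of the 11 fits that each left out 1 mouse, with an adjusted p of up to 0.196.

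Of the endosomal receptors, Tlr3, Tlr8 and Tlr13 rose in ΔTreg skin. Tlr3 (chromosome 8, 45395665 to 45411080, minus strand), the receptor gene for double-stranded RNA, was at 4.94 and 5.10 CPM in control, 4.46, 4.77 and 4.84 in ΔETreg, 5.93, 6.78 and 4.85 in ΔLTreg skin, and 8.404, 8.61 and 7.64 CPM in ΔTreg mice. Its control and ΔETreg mice were close together, and its log2 fold change in ΔTreg skin, 0.71 (SE 0.140, adjusted p = 0.00433), was the smallest among the receptors that rose. Because strand was not stated for the counting, the antisense gene Gm45542, which overlaps Tlr3 exons by 381 bases, was looked up and held 0 to 2 counts per library. Tlr8 (chromosome X, 167242696 to 167264329, minus strand), a receptor gene of the RNA-sensing group, was at 1.02 and 0.52 CPM in control, 0.45, 0.79 and 0.56 in ΔETreg, 0.66, 1.37 and 0.31 in ΔLTreg skin, and 3.52, 1.90 and 3.31 CPM in ΔTreg mice. The ΔTreg mice differed among themselves, with mouse 2 the lowest, and all 3 were above every other mouse (log2 fold change 1.89, SE 0.496, adjusted p = 0.0201 against control). Tlr13 (chromosome X, 106143204 to 106160493, plus strand), which encodes a sensor of bacterial ribosomal RNA, was at 1.58 and 0.64 CPM in control, 0.49, 0.89 and 0.56 in ΔETreg, 0.86, 2.78 and 0.66 in ΔLTreg skin, and 4.50, 3.44 and 3.37 CPM in ΔTreg mice. ΔLTreg mouse 2 came nearest to the ΔTreg mice, and the log2 fold change against control was 1.74 (SE 0.539, adjusted p = 0.0414). That call held in all 7 other settings and in 4 of the 11 fits that each left out 1 mouse.

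Tlr7 and Tlr9 did not pass the test in any of the 6 comparisons. Tlr7 (chromosome X, 167304929 to 167330558, minus strand), the receptor gene for single-stranded RNA, which lies 40599 bases from Tlr8, was at 2.38 and 1.39 CPM in control, 1.57, 1.38 and 0.64 in ΔETreg, 0.75, 1.76 and 0.75 in ΔLTreg skin, and 2.40, 2.35 and 1.98 CPM in ΔTreg mice. Control mouse 1 was level with the ΔTreg mice, so these groups overlapped (log2 fold change 0.23, SE 0.393, adjusted p = 0.718). Against ΔLTreg skin, from which the ΔTreg mice did not overlap, the log2 fold change was 1.08 (SE 0.370, adjusted p = 0.0716). It passed there in 3 of 7 other settings (adjusted p from 0.000872 to 0.0759) and without ΔLTreg mouse 2 (1.57). Against ΔETreg skin Tlr7 passed in 3 of 7 other settings as well. Tlr9 (chromosome 9, 106222598 to 106226883, plus strand), which encodes the sensor of unmethylated CpG DNA, was at 2.31 and 1.27 CPM in control, 1.81, 2.14 and 1.41 in ΔETreg, 1.91, 3.88 and 1.00 in ΔLTreg skin, and 4.72, 2.91 and 3.34 CPM in ΔTreg mice. All ΔTreg mice were above both control mice, but the spread in the other groups was wide, and the log2 fold change of 1.00 (SE 0.465, adjusted p = 0.155) passed in 2 of 7 other settings. Tlr1, Tlr6 and Tlr8 had 8 to 136 counts per library and Tlr7 and Tlr9 had 15 to 110, which limits the size of change detectable in them. Tlr7, Tlr8 and Tlr13 are X-linked. With sex as a covariate 7 receptors were called between ΔTreg and control skin, Tlr8 and Tlr13 among them. The call lost there was that of Tlr5 (log2 fold change -0.49), which is not X-linked.

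**Figure D2:**
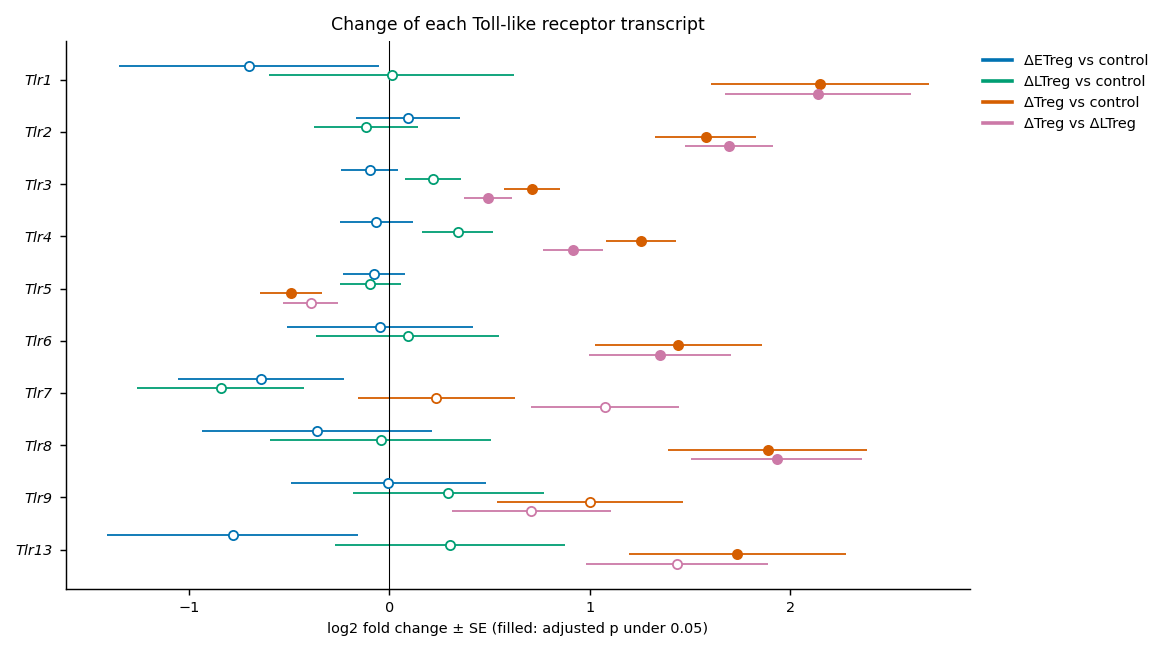
Log2 fold change (x axis) of each receptor (y axis) with its standard error as a bar, for ΔETreg, ΔLTreg and ΔTreg skin against control and for ΔTreg against ΔLTreg skin. Filled points have an adjusted p under 0.05 and occur in the comparisons of ΔTreg skin, where Tlr1 reaches 2.15 and Tlr5 falls to -0.49.

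When 1 mouse at a time was left out, Tlr2, Tlr3 and Tlr4 kept their calls between ΔTreg and control skin in all 11 fits. Without control mouse 2, the lower of the 2 controls in all receptors but Tlr3 and Tlr5, these 3 were the ones that remained. The log2 fold change was then 1.59 for Tlr1, 0.95 for Tlr6, 1.495 for Tlr8 and 1.24 for Tlr13, each lower than with both controls. Without ΔTreg mouse 1 or ΔTreg mouse 3 there were 4 calls, and without ΔTreg mouse 2 there were 5, while the values of the calls lost moved less. Tlr6 lost its call without any 1 of the ΔTreg mice, with log2 fold changes of 1.39 to 1.53, and Tlr8 without ΔTreg mouse 1 (1.73) or ΔTreg mouse 3 (1.78). Tlr13 lost its call without any 1 of the ΔTreg mice (1.59 to 1.81) or of the ΔETreg mice (1.74), which do not enter this comparison other than through the shared spread. Tlr5 had values of -0.55 to -0.43 over all 11 fits and lost its call without any 1 mouse other than ΔETreg mouse 2, ΔLTreg mouse 1 and ΔLTreg mouse 3. With control mouse 1 and ΔLTreg mouse 2 both left out, 8 receptors were called against control and 9 against ΔLTreg skin. A fit without 1 of the control mice leaves 1 control with no spread of its own, which is assumed to vary like the other groups.

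ΔTreg skin was also compared with ΔLTreg skin, harvested at the same age, which asks what the 2 earlier doses added. Of the 10 receptors, 6 rose in ΔTreg skin, Tlr1, Tlr2, Tlr3, Tlr4, Tlr6 and Tlr8, where 10.7% of all genes tested were called higher. The log2 fold change was 2.14 (SE 0.463, adjusted p = 0.00892) for Tlr1, 1.69 (SE 0.219, adjusted p = 0.000374) for Tlr2 and 1.93 (SE 0.426, adjusted p = 0.00987) for Tlr8. It was smaller for Tlr3, at 0.49 (adjusted p = 0.0174), and for Tlr4, at 0.91 (adjusted p = 0.00165), whereas Tlr6 had 1.35 (adjusted p = 0.0241). Tlr13 had 1.44 (SE 0.452, adjusted p = 0.0521), passed in 5 of 7 other settings, and did not overlap between the groups. In 8 receptors all 3 ΔTreg mice lay above all 3 ΔLTreg mice, which was so for 19.2% of the genes tested. The count ranged from 4 without ΔTreg mouse 1 to 9 without ΔLTreg mouse 2. Tlr3 lost its call without ΔTreg mouse 1 (0.47) or mouse 2 (0.46), and Tlr6 without ΔLTreg mouse 1 (1.37), ΔTreg mouse 1 (1.31) or ΔTreg mouse 3 (1.296), with log2 fold changes close to those of all mice. Against ΔETreg skin, harvested 4 days earlier, 7 receptors rose in ΔTreg skin, where 13.2% of all genes were called higher, with log2 fold changes from 0.81 for Tlr3 to 2.85 for Tlr1. In 9 receptors, all but Tlr5, the ΔTreg mice lay above all ΔETreg mice, which was so for 23.4% of genes. Both comparisons share the ΔTreg libraries with the comparison against control.

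The 2-dose groups showed no receptor that passed the test. Between ΔETreg and control skin, 1 of all genes tested (0.00544%) passed, and 4.75% had an unadjusted p under 0.05, among them none of the 10 receptors. The log2 fold changes ran from -0.78 (SE 0.628) for Tlr13 to 0.09 (SE 0.259) for Tlr2. Tlr3 was lower in all 3 ΔETreg than in both control mice, a pattern that 10.3% of genes tested showed. Between ΔLTreg and control skin, 4.55% of genes passed and 20.2% had an unadjusted p under 0.05, again with none of the 10 receptors among them. Here the values ran from -0.84 (SE 0.417) for Tlr7 to 0.34 for Tlr4. For Tlr1, Tlr6, Tlr8 and Tlr13 the standard errors in both comparisons were between 0.456 and 0.649, and changes of several times that size could be missed. Tlr12, for example, did not pass in ΔETreg against control skin with a log2 fold change of 1.27 (SE 0.411). With DESeq2's Wald test the count was also 0 in both comparisons. Between the 2-dose groups themselves, which differ in age, 6.38% of all genes and none of the receptors passed, and Tlr3 and Tlr4 had an unadjusted p under 0.05, as 22.7% of genes did, with higher levels in ΔLTreg skin. In these 2 genes all ΔLTreg mice lay above all ΔETreg mice, which was so for 13.7% of genes tested.

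The make-up of the family shifted with these changes. Levels of different genes are compared here as CPM per kilobase of exon (kb). In control skin Tlr5 (1.08), Tlr2 (1.07) and Tlr3 (0.964) led. Tlr2 overlapped both of the others, whereas Tlr5 was above Tlr3 in both mice. Tlr3 was above Tlr4 (0.628) in both mice, and from Tlr4 down to Tlr6 (0.185) each gene overlapped the next. In ΔTreg skin Tlr2 led with 3.22 ± 0.411 CPM per kb (SD, n = 3), above every mouse's value for Tlr3 (1.58 ± 0.0987) and Tlr4 (1.51 ± 0.241). Tlr1, ranked 7 of the 10 in control skin at 0.259 CPM per kb, stood next at 1.18 ± 0.248. Tlr5 ranked 8 of the 10 at 0.769 ± 0.0602 CPM per kb, above Tlr7 (0.549) and Tlr6 (0.514). The 10 genes together held 6.46 and 4.81 CPM per kb in control mice, 4.59 to 5.62 in ΔETreg, 3.997 to 7.88 in ΔLTreg and 10.7 to 13.7 CPM per kb in ΔTreg mice. Tlr5 supplied 16.2 and 23.2% of that sum in control, 18.7 to 21.03% in ΔETreg, 13.4 to 20.8% in ΔLTreg and 5.54 to 7.10% in ΔTreg mice.

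**Figure D3:**
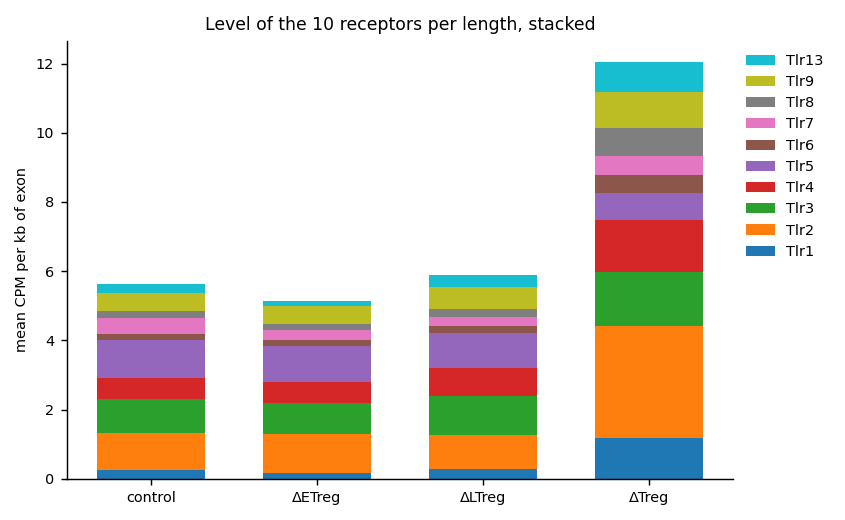
Mean level of the 10 receptors in CPM per kb of exon (y axis, from 0), stacked for each group (x axis). The stack of ΔTreg skin is the tallest, Tlr2 makes up 26.7% of it, and the share of Tlr5 falls from 19.2% in control to 6.38% in ΔTreg skin.

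Marker lists of several cell types differed between ΔTreg and control skin, where 12.1% of all genes tested were called higher and 9.39% lower. The 11 macrophage and monocyte genes summed to 213.6 and 278.7 CPM in control, 162.6 to 234.0 in ΔETreg, 125.0 to 300.04 in ΔLTreg and 548.3 to 722.8 CPM in ΔTreg mice. None of them was at 0 in any group, and 5 of the 11 were called higher in ΔTreg than in control skin. In bulk skin, more cells of a type and more RNA per cell cannot be told apart. The 7 neutrophil genes summed to 13.4 and 14.3 CPM in control and 33.8 to 42.3 CPM in ΔTreg mice, and all 6 that could be tested were called higher, although Ly6g, a defining gene, was at or under 3 counts in each library. T cell genes (5 of 5 called higher) rose from at most 12.5 CPM in control to between 40.6 and 49.1 CPM, natural killer genes (3 of 3) from at most 0.140 to between 1.48 and 1.97 CPM, and pan-leukocyte genes (3 of 3) from at most 66.9 to between 155.6 and 214.9 CPM. B cell genes stayed at or under 1.02 summed CPM in every library. Only 2 of the 5 B cell genes and 2 of the 4 plasmacytoid dendritic cell genes could be tested. None of these and none of the 5 mast cell genes was called against control. Against ΔETreg skin, 1 of the 2 tested plasmacytoid dendritic cell genes was called higher in ΔTreg skin. Conventional dendritic cell genes had 2 of 7 called higher, and Langerhans cell genes 1 higher and 1 lower of 3. The 8 interferon response genes, all called higher, went from 43.0 and 67.0 CPM in control to between 624.2 and 892.0 CPM in ΔTreg mice. Lists of other skin cells moved as well, beside the fall of Tlr5. Melanocyte genes (3 of 3 called lower) went from 849.5 and 994.4 summed CPM in control to between 484.0 and 514.0 in ΔTreg mice. Fibroblast genes (1 of 3 called lower) went from 7828 and 8591 to between 4029 and 4482 CPM, with 3749 to 10035 CPM in the 2-dose groups. Endothelial genes had 2 of 3 called lower and 1 higher, with sums of 161.8 and 179.3 in control and 176.3 to 183.1 CPM in ΔTreg mice. Keratinocyte genes had 1 of 3 higher and 1 lower, skeletal muscle genes 1 of 3 higher, red cell genes 1 of 3 lower, and adipocyte genes none of 3 called. The part of these cells and of the interferon response in the receptor changes was not tested. The natural killer genes were each at or under 3 counts in the control and ΔLTreg libraries, and summed to at most 0.244 CPM in ΔETreg mice. Cd8a, of the T cell list, was at or under 3 counts in every library outside ΔTreg skin. These genes passed the filter on low counts only through ΔTreg skin, so their calls are partly set by the filter.

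Set beside the macrophage and monocyte sum, the receptors fell into different patterns. Per 100 CPM of that sum, Tlr2 was at 1.30 ± 0.0759 CPM (SD, n = 2) in control and 1.501 ± 0.118 (SD, n = 3) in ΔTreg skin, and Tlr1 at 0.335 ± 0.184 and 0.605 ± 0.0467, each with all ΔTreg mice above both control mice. Tlr4, at 1.43 ± 0.140 and 1.29 ± 0.121, and Tlr6, at 0.269 ± 0.117 and 0.297 ± 0.0157, overlapped between the groups, as did Tlr8, Tlr9 and Tlr13. Tlr3 went from 2.08 ± 0.435 to 1.29 ± 0.245, Tlr7 from 0.754 ± 0.143 to 0.351 ± 0.0693 and Tlr5 from 2.15 ± 0.497 to 0.573 ± 0.0613 CPM, each with all ΔTreg mice below both control mice. Tlr2, at 1.37 to 1.60 in ΔTreg mice, overlapped both 2-dose groups, at 1.53 to 1.92 in ΔETreg and 1.33 to 1.58 in ΔLTreg mice. Its highest control mouse was at 1.36. Tlr7 also overlapped the 2-dose groups in ΔTreg skin, whereas Tlr1, Tlr3 and Tlr5 did not. The sum itself rose, from a mean of 246.1 CPM in control to 648.8 CPM in ΔTreg skin. A receptor that rose less than the sum, as Tlr3 did, therefore has a lower ratio although its level in CPM rose. These ratios are descriptions with no test, and the share of all genes with such patterns was not worked out.

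**Figure D4:**
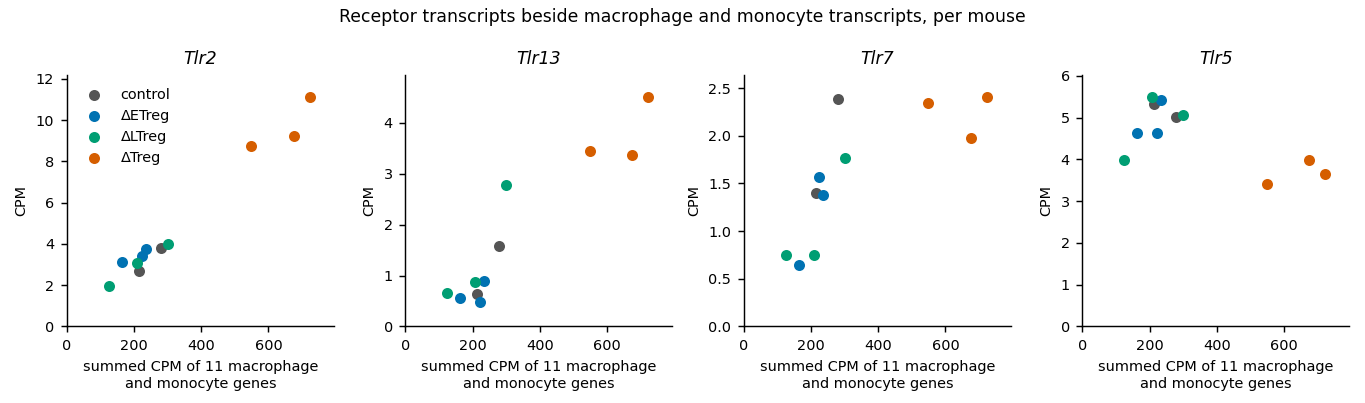
Level of Tlr2, Tlr13, Tlr7 and Tlr5 in CPM (y axes, from 0) against the summed CPM of 11 macrophage and monocyte genes (x axes, from 0), with 1 point per mouse coloured by group. Tlr2 and Tlr13 are highest in the 3 ΔTreg mice, in which the macrophage sum is at least 548.3 CPM, Tlr7 reaches the same level in control mouse 1, and Tlr5 is lower in ΔTreg than in control mice.

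The start regions of the receptors were read for motifs of factors that act in this pathway. RefSeq windows of GRCm38.p6, from 250 bases before to 50 bases after an annotated start, were found for 8 of the 10 receptors in 10 windows, with no entry for Tlr4 and Tlr7. Both strands were searched for an interferon-stimulated response element (GAAA, any 2 bases, GAAA, present in 3.44% of 32851 windows), an interferon-gamma activated site (TTCNNNGAA, 8.3%), an NF-κB site (GGG, any 3 bases, TTCC, 5.56%) and a PU.1 site (GAGGAAGT, 3.2%). The windows of Tlr2, Tlr3, Tlr5 and one of Tlr6 are shown, picked by both direction of change and motif. Tlr2, Tlr3 and Tlr6 rose and hold an NF-κB or interferon element, and Tlr5 fell and holds none of the 4 motifs. Tlr13 rose and also holds none, and a link between motif and direction was not tested. Capitals mark the match, and positions are counted from the start site.
Tlr2, chr3:83841559-83841858, minus strand, NF-κB match from base -173: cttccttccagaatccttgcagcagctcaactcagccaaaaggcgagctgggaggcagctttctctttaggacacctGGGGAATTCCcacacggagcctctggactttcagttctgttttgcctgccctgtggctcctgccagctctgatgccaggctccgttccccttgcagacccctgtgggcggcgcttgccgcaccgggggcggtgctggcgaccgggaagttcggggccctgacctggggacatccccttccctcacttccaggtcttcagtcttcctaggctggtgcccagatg
Tlr3, chr8:45410331-45410630, minus strand, NF-κB match from base -211: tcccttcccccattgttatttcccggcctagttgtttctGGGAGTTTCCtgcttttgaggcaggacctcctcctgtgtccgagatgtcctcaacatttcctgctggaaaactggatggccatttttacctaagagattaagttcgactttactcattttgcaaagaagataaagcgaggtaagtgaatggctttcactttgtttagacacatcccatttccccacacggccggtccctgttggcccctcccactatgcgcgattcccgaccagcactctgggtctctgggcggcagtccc
Tlr6, chr5:64959117-64959416, minus strand, overlapping interferon element matches from bases -116 and -110, on the opposite strand: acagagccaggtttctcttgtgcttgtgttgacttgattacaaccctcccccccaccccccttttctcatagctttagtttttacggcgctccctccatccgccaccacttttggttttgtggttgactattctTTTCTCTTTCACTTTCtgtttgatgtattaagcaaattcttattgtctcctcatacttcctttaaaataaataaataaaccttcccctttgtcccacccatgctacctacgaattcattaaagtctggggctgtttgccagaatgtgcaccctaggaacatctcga
Tlr5, chr1:182954538-182954837, plus strand, no match: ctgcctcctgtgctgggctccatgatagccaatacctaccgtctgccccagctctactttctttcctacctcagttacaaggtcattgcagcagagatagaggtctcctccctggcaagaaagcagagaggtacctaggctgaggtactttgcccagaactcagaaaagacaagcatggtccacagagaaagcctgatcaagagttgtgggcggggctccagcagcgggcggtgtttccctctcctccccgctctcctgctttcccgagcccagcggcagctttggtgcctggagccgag
Elsewhere, a second Tlr6 window held an NF-κB match at -99 and interferon-gamma sites at -3 and 8, and Tlr8 held an interferon-gamma site at -106. Tlr1 held a PU.1 match at -23 in one window and an interferon-gamma site at -228 in another, Tlr9 held a PU.1 match at 11, and Tlr13 held none. A match of letters is a description and not a bound site.

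The genes around the receptors were taken from lists of the pathway, written with earlier results of these data known. Among 10 co-receptors and chaperones, 3 rose and 1 fell in ΔTreg against control skin, where 12.1% of all genes tested were called higher and 9.39% lower. Ly86, which encodes MD-1, the partner of the TLR4-like protein RP105, was at 2.94 and 1.59 CPM in control and 13.5, 10.99 and 12.5 CPM in ΔTreg mice, with a log2 fold change of 2.43 (SE 0.448, adjusted p = 0.00296). Lbp, the lipopolysaccharide-binding protein gene, rose by a log2 fold change of 1.35 (adjusted p = 0.00207), and Unc93b1, which encodes the chaperone that carries endosomal receptors out of the endoplasmic reticulum, by 1.14 (adjusted p = 0.0126). The other parts of the TLR4 complex moved less, with log2 fold changes of 0.24 (adjusted p = 0.645) for Cd14 and 0.37 (adjusted p = 0.241) for Ly96, which encodes MD-2. Cd36, a scavenger receptor that serves TLR2 and is also expressed by fat and blood vessel cells, had log2 fold changes of -0.36 (adjusted p = 0.0133) in ΔTreg and -0.43 (adjusted p = 0.0207) in ΔLTreg skin, both past the test. It had 140.9 and 140.6 CPM in control, 102.7, 115.4 and 94.5 in ΔLTreg and 103.8, 109.3 and 115.3 CPM in ΔTreg mice.

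Among 22 adaptors and kinases, 8 rose and none fell between control and ΔTreg skin, with a median log2 fold change of 0.11 over the list. For this and the next lists, 12.1% of all genes tested were called higher. Myd88, the adaptor of nearly all of the receptors, went from 28.2 and 26.8 CPM in control to 44.5, 42.4 and 38.1 CPM in ΔTreg mice (log2 fold change 0.60, SE 0.0779, adjusted p = 0.000336). The kinase genes Tbk1 and Ikbke, which act on interferon regulatory factors, rose by log2 fold changes of 0.47 and 0.80. Of 8 transcription factors of the NF-κB and IRF families, 7 rose, among them Nfkb2 (0.91), Relb (1.05) and Nfkb1 (0.55), each on the log2 scale. Of 13 inhibitors, 8 rose. Socs1, which restrains cytokine receptors and TLR adaptors, was at 8.27 and 7.57 CPM in control and 41.0, 33.7 and 27.1 CPM in ΔTreg mice (log2 fold change 2.10, adjusted p = 2.90e-05), while the ubiquitin-editing enzyme gene Tnfaip3 and its partner Tnip1 had log2 fold changes of 0.86 and 0.71. Of 20 genes that receptor signalling induces, 15 passed the filter and 13 of these rose, with a median log2 fold change of 3.15. Some passed the filter only through ΔTreg skin, so this count and median are partly set by the filter. Il6, for example, had 17 to 31 counts in ΔTreg mice and 1 to 4 in the other mice. Nos2, the inducible nitric oxide synthase gene, had 3.31, Cxcl10, a chemokine gene, 4.31, and Ccl5, another chemokine gene, 5.23 on the log2 scale, the last from 8 and 2 counts in the control mice. Many of these genes are known to be induced by interferons and other cytokines as well.

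**Figure D5:**
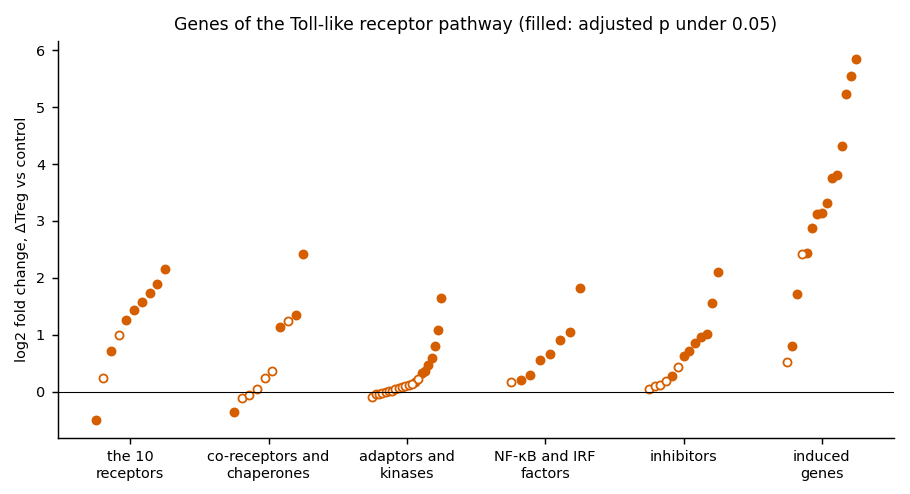
Log2 fold change between ΔTreg and control skin (y axis) of the 10 receptors and of the tested genes of 5 pathway lists (x axis), each point 1 gene, ordered by value within its list and filled where the adjusted p is under 0.05. The induced genes have the highest median, 3.15, against 1.35 for the receptors and 0.11 for the adaptors and kinases. Some induced genes passed the filter on low counts only through ΔTreg skin, which raises their median.

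With Tlr11 and Tlr12, 70 genes of the pathway lists were tested. Between ΔTreg and control skin 42 of them (60%) were called, against 21.5% of all genes tested. Part of that share comes from induced genes that passed the filter only through ΔTreg skin. In ΔLTreg against control skin 3 (4.29%) were called, a share near the 4.55% of all genes. In ΔETreg against control skin 1 (1.43%) was called, which was also the 1 gene called among all 18375 genes tested (0.00544%). Atf3, a stress-induced repressor of TLR target genes, passed in all 3 DT groups, from 4.94 and 4.94 CPM in control to 12.5, 13.1 and 16.6 in ΔETreg, 13.5, 11.5 and 9.86 in ΔLTreg skin and 15.6, 15.2 and 12.7 CPM in ΔTreg mice. Its log2 fold change was 1.504 (adjusted p = 0.0482), 1.24 (adjusted p = 0.00278) and 1.55 (adjusted p = 0.000110) in these groups. Of the lists, Atf3 was the gene called in ΔETreg skin, and Atf3, Cd36 and the acute phase gene Saa3 (log2 fold change 1.96, adjusted p = 0.0225) were those called in ΔLTreg skin. Saa3 lies outside the rule for named genes and was named after its value was seen. The call of Atf3 in ΔETreg skin was not stable. No gene of the lists was called there with sex as a covariate, on the libraries of the 2 groups alone, with at least 10 counts required in every library, with control mouse 1 and ΔLTreg mouse 2 left out, or in the fits that left out any 1 mouse other than ΔLTreg mouse 1 or 3. In ΔLTreg skin 1 gene was called without control mouse 1 or without control mouse 2, and 6 without ΔLTreg mouse 3.

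The other Toll-like receptor genes of the mouse, Tlr11 and Tlr12, which encode sensors of parasite profilin, were near the limit of detection. Tlr11 had 7 and 1 counts in control, 4 to 14 in ΔETreg, 5 to 14 in ΔLTreg and 23, 24 and 27 counts in ΔTreg mice, with a log2 fold change of 2.46 (adjusted p = 0.0202) against control that rests on those low counts. Tlr12 had 7 and 5 counts in control, 14, 19 and 12 in ΔETreg, 16, 7 and 6 in ΔLTreg skin and 16, 18 and 19 counts in ΔTreg mice. Its log2 fold change was 1.40 (adjusted p = 0.0303) in ΔTreg and 1.27 (SE 0.411, adjusted p = 1.00) in ΔETreg skin.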

How the data were processed

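Counts of whole skin from 11 Foxp3-DTR mice were used, grouped by the treatment given in the sample labels. Per the study's methods, 4 mm biopsies were sequenced as paired 150-base reads. Trimming with Trimmomatic 0.36 and alignment to GRCm38 with STAR 2.5.2b were done by the authors, who counted unique exon reads with featureCounts of Subread 1.5.2. They deposited these raw counts for 49315 genes, neither normalized nor filtered. The annotation release and the strand setting are not given in the sources used here. Replicate numbers follow accession order, the labels used here name no batch, and p-values measure the spread between mice.

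Counts were tested in R 4.3.3 with edgeR 4.0.16 (filterByExpr by group, TMM, 1 mean per group over all 11 libraries, common dispersion 0.0120, quasi-likelihood test). P-values were adjusted over the 18375 genes tested in each of 6 comparisons, with a threshold of 0.05. Standard errors (SE) were obtained as the absolute log2 change over √F, and log2 CPM adds a prior count of 2. Coordinates and exon lengths come from GENCODE M21. Libraries held 23377571 to 34159435 counts. A count at or under 3 was treated as the floor, which covers counting error only. The fit was also run on simulated counts with the same dispersion for every gene, which does not cover the wider spread of receptors such as Tlr1 and Tlr13.

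The receptors, the pathway lists and the marker lists were chosen with earlier results of these data known. Named genes were the 10 receptors, Tlr11, Tlr12, Foxp3, the 3 genes of each pathway list with the smallest p between ΔTreg and control, those called in ΔETreg skin or against their list's direction, and the 3 genes nearest to each receptor in pattern. Alternatives were DESeq2 1.42.0, the 2 groups alone, other scalings and filters, a term for sex, and fits without each single mouse. Saa3, Cd14 and Ly96 fall outside the rule.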

Additional observations from a re-analysis of the deposited data

How the results depend on the processing

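The direction of every called receptor held in each alternative tried. The number called between ΔTreg and control skin was 7 or 8 in the settings that kept all mice and 3 to 8 as single mice were left out, and it was 4 to 9 against ΔLTreg and 7 to 9 against ΔETreg skin. In the 2-dose groups against control it stayed at 0 in each setting. Without a filter on low counts, Tlr13 was called between ΔLTreg and ΔETreg skin, the 1 receptor so called. Of the 70 pathway genes, Tlr11 and Tlr12 included, those called in ΔETreg against control skin, 1 in the report, numbered 0 on the 2 groups alone, with at least 10 counts in every library, with sex as a covariate and with control mouse 1 and ΔLTreg mouse 2 left out, and 2 without a filter. In ΔLTreg against control skin, 3 in the report, they numbered 1 on the 2 groups alone, 9 without a filter and 0 with both mice left out. In ΔLTreg against ΔETreg skin, 1 in the report, they numbered 4 with DESeq2, 9 without a filter, 0 with at least 10 counts, 2 with sex and 2 with both mice left out. As single mice were left out, these counts ranged from 0 to 1, 1 to 6 and 1 to 7, and in the comparisons of ΔTreg skin from 26 to 44 against control, 27 to 34 against ΔLTreg and 35 to 45 against ΔETreg skin. The cause was not tested.

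Some log2 fold changes that were not called changed sign, among them those of Tlr13 (-0.78) and Tlr1 (-0.70) in ΔETreg against control skin. With both mice left out, ΔETreg against control gave 0.30 for Tlr1, 0.0302 for Tlr4, 0.76 for Tlr6, 0.22 for Tlr8, 0.50 for Tlr9 and 0.0285 for Tlr13, and ΔLTreg against ΔETreg gave -0.27 for Tlr6, -0.31 for Tlr8 and -0.30 for Tlr9. With sex as a covariate, Tlr1 had -0.0813 in ΔLTreg against control, Tlr6 0.0550 and Tlr9 0.14 in ΔETreg against control, and Tlr6 -0.0175 in ΔLTreg against ΔETreg skin. Tlr8 in ΔLTreg against control had 0.00316 with DESeq2. Tlr9 in ΔETreg against control had 0.00528 on the 2 groups alone, 0.0334 with library size alone, 0.00241 without a filter and 0.00660 with at least 10 counts. As single mice were left out, some values not called spanned 0. In ΔETreg against control skin they ranged from -1.25 to 0.31 for Tlr1, -0.13 to 0.37 for Tlr2, -0.15 to 0.0315 for Tlr4, -0.53 to 0.76 for Tlr6, -0.75 to 0.22 for Tlr8, -0.36 to 0.50 for Tlr9 and -1.27 to 0.0297 for Tlr13. In ΔLTreg against control skin they ranged from -0.64 to 1.01 for Tlr1, -0.35 to 0.16 for Tlr2, -0.20 to 0.0322 for Tlr5, -0.39 to 0.90 for Tlr6, -0.66 to 0.53 for Tlr8, -0.30 to 0.80 for Tlr9 and -0.55 to 1.11 for Tlr13. In ΔLTreg against ΔETreg skin they ranged from -0.45 to 0.0167 for Tlr2, -0.12 to 0.0993 for Tlr5, -0.27 to 0.49 for Tlr6, -0.70 to 0.0238 for Tlr7, -0.31 to 0.69 for Tlr8 and -0.30 to 0.65 for Tlr9. In ΔTreg against control skin they ranged from -0.0976 to 0.68 for Tlr7. No paired analysis was possible because the labels give no replicate numbers that the groups share. Levels under 1 CPM, as for Tlr6 and Tlr8 in control skin, rested on 10 to 29 counts there and limit what could be detected.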

Other observations

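The genes whose pattern over the 11 libraries came closest to each receptor were sought among 13892 genes with a mean count of at least 50, by the root mean square difference of log2 CPM after each gene's own mean was removed. All points share the same libraries, so this is a description with no test. Tlr2 was nearest to Cyba, Cd37 and Arhgap4 (0.148 to 0.152, against 0.759 for the spread of Tlr2 itself), and Tlr4 to H2-DMb1, Eif4e3 and Plcg2 (0.0953 to 0.120, against 0.552). Tlr1 was nearest to Ccr1, Ctss and Cybb (0.235 to 0.256, against 1.27) and Tlr6 to Cd180, Igsf6 and Pld4 (0.181 to 0.206, against 0.766). For the endosomal receptors the nearest genes were Tifa, Prr13 and Pdzk1ip1 for Tlr3 (0.0810 to 0.0951, against 0.335), Slc15a3, Fgr and Hcls1 for Tlr8 (0.206 to 0.229, against 1.03) and Slfn8, Mpeg1 and Il10ra for Tlr13 (0.249 to 0.293, against 1.09). Tlr5, which fell, was nearest to Fam114a1, Scrn2 and Abhd14b (0.0687 to 0.0824, against 0.226). The fits were looser for Tlr9, nearest to Tnfrsf13b, Prune2 and Evi2a (0.242 to 0.255, against 0.642), and for Tlr7, nearest to Pde1b, Cd33 and Il1rl1 (0.288 to 0.329, against 0.638).

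Tlr13 varied most among the mice outside ΔTreg skin, with 5.71 times the lowest level in the highest mouse, followed by Tlr1 with 5.26 times and Tlr8 with 4.38 times. Tlr5 varied least, with 1.38 times, and Tlr3 had 1.52 times. ΔLTreg mouse 2, the highest of these mice for Tlr1, Tlr2, Tlr3, Tlr6, Tlr8, Tlr9 and Tlr13, and control mouse 1, the highest for Tlr7, were also the highest in the macrophage and monocyte sum. Their part in the receptor levels was not tested beyond the fits that left them out.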
